A study of Mus musculus with 7 samples.

Results

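Chromatin accessibility was examined at 9 transcription factor genes of the neural crest, Sox10, Foxd3, Tfap2a, Tfap2b, Ets1, Twist1, Pax3, Sox9 and Snai2, out of 26180 mouse genes with a curated RefSeq transcript. For each gene, the ATAC-seq peaks lying from 50 kb upstream to 50 kb downstream of its gene body were collected. The data are peak lists of 7 libraries from sorted cells of the second heart field (SHF) region, microdissected from embryos at embryonic day 9.5. GFP+ and GFP- cells (2 libraries each) came from the Hoxb1-GFP line, in which the GFP allele replaces a Hoxb1 allele and marks Hoxb1-expressing cells of the posterior SHF. Tomato+ cells (2 libraries) and Tomato- cells (1 library) came from Mef2c-Cre;Rosa tdTomato embryos, in which an anterior heart field element of Mef2c drives the Cre recombinase. No other allele or treatment is named for any group, and embryos were pooled before sorting, so each library is a pool. Each sort comes from its own mouse line, so sort and line cannot be told apart between GFP+ and Tomato+ cells, and the spread between the samples of a group may be technical.

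The neural crest forms at the border of the neural plate, leaves the dorsal neural tube and migrates through the pharyngeal arches, and its cardiac portion enters the outflow tract of the heart. Tfap2a, Tfap2b and Pax3 act at the neural plate border and in early crest. Foxd3, Sox9, Snai2, Ets1 and Twist1 act as crest cells are specified and leave the epithelium, and Sox10 marks migrating crest and its glial and pigment lineages. Several of these factors are also used outside the crest: Sox9 in cartilage and endocardial cushions, Ets1 in endothelium, Twist1 and Snai2 in mesenchyme, and Pax3 in the somites. Neither reporter was built to label crest cells, so the sort-negative cells of the dissected region (GFP- and Tomato-, 3 libraries) are where crest cells left unlabelled would be collected. The comparison of the 4 sort-positive libraries with the 3 sort-negative libraries therefore asks whether crest genes were more accessible in cells without the reporter of their line. Each line was sorted on its own reporter only. GFP- cells can thus include cells of the Mef2c-Cre lineage, and Tomato- cells can include Hoxb1-expressing cells. The sort-negative side is therefore not free of the populations on the sort-positive side, which limits this comparison. In bulk samples, fewer cells of a type and less accessible chromatin per cell cannot be told apart.

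The lists held 187914 to 291287 peaks per library, of which 64306 to 77746 had a q-value of at most 0.01, and the estimated depth was 52300000 to 93100000 tags. It was 52300000 to 76800000 in the sort-positive and 68800000 to 93100000 in the sort-negative libraries, so depth moved in part with the sort. The header of Tomato+ replicate 6 carries a run name with another reporter (YFP) than its label. The label was followed. Peaks with a q-value of at most 0.01 in any library were merged into 210347 regions, 173 of them at the 9 genes. Fold enrichment is the ratio of the summit pileup to the local background within a library, and a region without a listed peak in a library may still carry signal below the calling limit. Promoter peaks of the populations' own markers gave little separation. Among 5 posterior and 6 anterior SHF genes, none had all sort-positive libraries ranked above all sort-negative ones or the reverse. The promoter of Hoxb1, the gene that drives GFP, had a fold enrichment of 3.73 and 2.88 in GFP+ cells and of 3.28 and 3.71 in GFP- cells. Among 5 neural tube and 5 endothelial and blood genes, only Sox2 and Tal1, 1 in each list, ranked higher in every sort-negative library. No gene of the endoderm or paraxial lists was separated. Of all coding genes, 1.71% were separated with the sort-negative and 1.87% with the sort-positive libraries above. With lists this short, nothing is read from Sox2 and Tal1.

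Sequences of 4 distal regions are shown because the comparisons below turn on them, with the 100 bases on either side of the summit on the plus strand of GRCm38. The regions at Pax3, Ets1 and Sox10 ranked higher in all sort-negative libraries, and the region at Sox9 was the strongest distal one of that gene among those with a peak in all 7 libraries. The Sox9 region was chosen after its values were seen. Capitals mark matches, on either strand, to letters of known binding motifs. The SOX motif was searched as ACAAAG, a core shared by many family members, and also as ACAATG. The E-box read by bHLH and Snail factors was searched in 2 forms, first CAGCTG with its palindromic core, then CAGGTG, which Snail factors prefer. The FOX motif was GTAAACA, the PAX motif read by paired domains was GTCACGC, and the ETS motif of the Ets1 family was CCGGAAG. The letters for TFAP2 were GCCNNNGGC, those for HOX-PBX pairs were TGATNNAT, those for TEAD factors were GGAATG and those for GATA factors were AGATAA. None of the matches overlapped another, and 11 sets of letters were searched in all.
Pax3 intron, chr1:78167691-78167891: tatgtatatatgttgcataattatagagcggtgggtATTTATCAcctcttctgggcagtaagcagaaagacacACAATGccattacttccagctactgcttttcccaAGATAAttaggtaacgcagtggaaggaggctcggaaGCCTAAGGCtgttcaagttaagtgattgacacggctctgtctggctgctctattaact
Ets1 upstream, chr9:32589895-32590095: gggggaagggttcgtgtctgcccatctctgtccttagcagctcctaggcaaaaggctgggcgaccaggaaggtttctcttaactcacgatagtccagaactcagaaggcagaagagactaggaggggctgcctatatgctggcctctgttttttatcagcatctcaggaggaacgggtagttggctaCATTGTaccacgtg
Sox10 upstream, chr15:79192931-79193131: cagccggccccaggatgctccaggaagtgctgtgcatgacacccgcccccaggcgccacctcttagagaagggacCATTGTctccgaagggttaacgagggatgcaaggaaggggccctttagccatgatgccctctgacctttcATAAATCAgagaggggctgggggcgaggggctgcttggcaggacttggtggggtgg
Sox9 downstream, chr11:112811167-112811367: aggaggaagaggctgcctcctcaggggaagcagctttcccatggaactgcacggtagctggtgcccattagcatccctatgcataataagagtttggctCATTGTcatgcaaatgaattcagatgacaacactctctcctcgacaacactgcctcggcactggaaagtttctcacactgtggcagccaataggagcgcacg
The SOX letters ACAATG were found in all 4 stretches, on the plus strand at Pax3 and on the minus strand at the other 3. They occurred in 8.2% of all regions over the same 201 bases. The other 4 regions that ranked higher in all sort-negative libraries are not shown and lacked ACAATG in 300 bases around the summit, so 3 of the 7 held it, and nothing is read from its presence in each stretch shown. The Pax3 stretch also held a HOX-PBX, a GATA and a TFAP2 match, which occurred in 6.39%, 6.61% and 9.02% of all regions, and the Sox10 stretch also held a HOX-PBX match. A match describes letters and does not show that a factor bound there. Over all 173 regions at the 9 genes, in 300 bases centred on the summit, the shares lay on both sides of those of all regions. CAGCTG was found in 26.0% against 20.3% of all regions, GCCNNNGGC in 16.2% against 12.1%, GTCACGC in 1.73% against 1.08% and CCGGAAG in 3.47% against 3.02%. The other 7 were less frequent than in all regions, among them CAGGTG at 23.7% against 25.2%, ACAATG at 11.6% against 12.2% and TGATNNAT at 6.94% against 9.55%.

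Promoter sequence was available for 4 of the 9 genes in the RefSeq-derived table of GRCm38.p6 used here, and 3 are shown that differed most in their promoter peaks. Each is the 250 bases before the transcription start site (TSS) on the coding strand, with the same motifs in capitals.
Twist1, chr12:33957421-33957670: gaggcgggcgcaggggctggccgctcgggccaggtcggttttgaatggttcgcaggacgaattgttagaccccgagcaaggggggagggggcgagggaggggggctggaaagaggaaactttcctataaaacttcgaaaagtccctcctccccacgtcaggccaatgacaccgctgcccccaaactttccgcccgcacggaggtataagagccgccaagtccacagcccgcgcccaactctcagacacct
Foxd3, chr4:99656049-99656298: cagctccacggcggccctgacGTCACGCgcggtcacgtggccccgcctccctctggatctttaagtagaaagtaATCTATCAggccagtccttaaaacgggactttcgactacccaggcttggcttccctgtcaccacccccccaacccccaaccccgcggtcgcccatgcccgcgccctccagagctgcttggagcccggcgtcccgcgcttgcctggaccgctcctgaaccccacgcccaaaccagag
Tfap2b, chr1:19211804-19212053: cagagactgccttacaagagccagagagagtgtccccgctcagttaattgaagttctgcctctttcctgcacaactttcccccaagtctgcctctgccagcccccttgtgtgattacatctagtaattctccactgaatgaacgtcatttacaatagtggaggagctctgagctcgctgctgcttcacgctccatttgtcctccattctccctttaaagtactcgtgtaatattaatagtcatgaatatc
The Twist1 stretch held 18 CpG dinucleotides at a GC content of 62.4%, the Foxd3 stretch 21 at 65.6%, and the Tfap2b stretch 5 at 46.4%. Twist1 had a promoter peak with a q-value of at most 0.01 in all 7 libraries, Foxd3 in 2 and Tfap2b in none. The Foxd3 stretch held a PAX match and a HOX-PBX match, found in 1.78% and 7.68% of all promoters in the table over 250 bases, and the other 2 stretches held none.

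The promoter window of a TSS ran from 1000 bp before it to 100 bp past it. Of the 9 genes, 3 (Ets1, Twist1 and Snai2) had a promoter peak of q at most 0.01 in all 7 libraries, against 53.1% of 21000 coding genes. All 9 had a deposited promoter peak in at least 2 libraries, whereas 18.2% of coding genes had none in any library. No promoter taken per gene separated the sort-positive from the sort-negative libraries in rank, and the background share was 1.71% of coding genes with the sort-negative and 1.87% with the sort-positive libraries above.

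The strongest promoter was that of Ets1, an ETS factor needed in cardiac crest and endothelium. At its TSS at chr9:32696037 the fold enrichment was 11.8 and 9.88 in GFP+, 10.8 and 13.7 in Tomato+, 10.7 and 12.2 in GFP-, and 10.96 in Tomato- cells. These peaks lay within the top 0.84% to 1.89% of their lists, with -log10 q of 30.4 to 52.7, and the groups overlapped fully. The upstream Ets1 TSS at chr9:32636241 was weaker, with 2.81 to 4.93 in 6 libraries and no peak in GFP- replicate 2. Snai2, a zinc finger repressor of the epithelial state, came next. Its promoter reached 9.11 and 6.94 in GFP+, 4.90 and 8.21 in Tomato+, 6.83 and 8.51 in GFP-, and 5.93 in Tomato- cells, so the lowest and the highest values were both in sort-positive libraries.

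Twist1, a bHLH factor of cranial and cardiac mesenchyme, had a broad promoter region of 1907 bp. Its promoter peak was narrow in range, from 3.55 to 4.67, with -log10 q of 3.83 to 8.62. The Sox9 promoter varied more. Its fold enrichment was 2.96 and 4.01 in GFP+, 2.702 and 4.56 in Tomato+, 4.72 and 4.17 in GFP-, and 3.53 in Tomato- cells, and it missed the q limit only in Tomato+ replicate 6, the shallowest library. Tfap2a, an AP-2 factor of early crest and surface ectoderm, had its strongest promoter peak at the internal TSS at chr13:40730457, with 2.78 to 4.70 and q at most 0.01 in 5 libraries. At the TSS at chr13:40733795 only 4 libraries had a peak, from 1.99 to 2.68, and at chr13:40734920 none had.

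Pax3, a paired-box factor of dorsal neural tube, crest and somite, was the member whose promoter differed most between the labelled populations. Its fold enrichment was 2.52 and 2.87 in GFP+ cells and 3.61 and 4.38 in Tomato+ cells, against 3.57 and 2.39 in GFP- and 2.89 in Tomato- cells. Both Tomato+ values were above those of the other 5 libraries, the nearest being GFP- replicate 1. Foxd3, a forkhead factor of premigratory crest, reached 3.67 and 2.35 in GFP+ cells, 3.83 in Tomato+ replicate 8 with no peak in replicate 6, 1.92 and 2.59 in GFP- cells and 2.50 in Tomato- cells. Only GFP+ replicate 3 and Tomato+ replicate 8 passed the q limit.

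Sox10, the SoxE factor of migrating crest and glia, had the weakest promoter after Tfap2b. Peaks of 2.07 to 2.76 were deposited in 5 libraries, and only that of GFP+ replicate 4 passed the q limit, at -log10 q of 2.56. For Tfap2b, an AP-2 factor also used in the ductus arteriosus, peaks of 2.50 in GFP+ replicate 4 and 2.17 in Tomato- replicate 7 were deposited at the TSS at chr1:19212054, neither passing the limit, and none at chr1:19208914. At neither gene were the sort-negative libraries the ones with the stronger promoter.

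**Figure D1:**
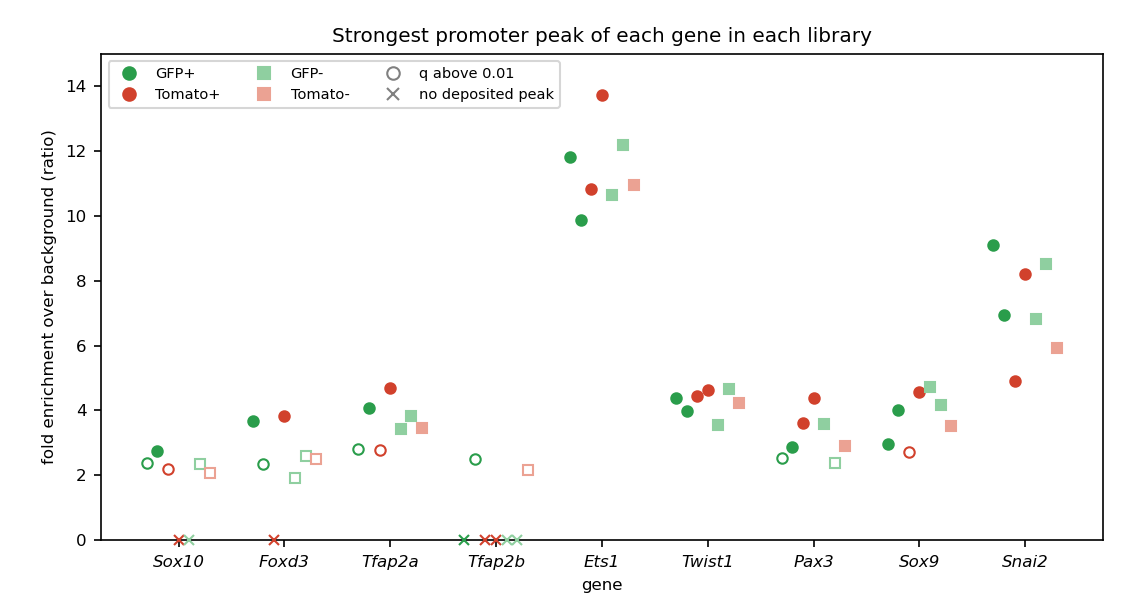
Fold enrichment over background (y axis, ratio) of the strongest promoter peak of each gene (x axis) in each of the 7 libraries; filled points have a q-value of at most 0.01, open points a higher one, and crosses mark libraries with no deposited peak. Ets1 stands highest at 9.88 to 13.7, Snai2 follows at 4.90 to 9.11, and Sox10 and Tfap2b lie lowest, with sort-positive circles and sort-negative squares mixed at every gene.

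The promoters of 33 other neural crest genes were counted in the same way. Of these, 15 (45.5%) had a peak of q at most 0.01 in all 7 libraries, against 53.1% of coding genes. Mitf, the pigment cell factor, was the strongest, at 7.23 to 10.3. Pax7, which acts with Pax3 at the plate border, was the 1 gene of the 33 whose sort-positive libraries (2.82 to 3.97) all ranked above its sort-negative libraries (2.34 to 2.68), and none was separated the other way. Among all coding genes these shares were 1.87% and 1.71%. The median over genes of the median fold enrichment was 3.63 for the 33 genes, 3.46 for the 9 and 4.98 for all coding genes with a peak.

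The distal landscape differed widely between the genes. Per library, the number of distal peaks with q at most 0.01 had a median of 9 at Tfap2b, 8 at Ets1, 7 at each of Sox10, Tfap2a, Pax3 and Sox9, 3 at Foxd3 and at Twist1, and 1 at Snai2. Per 100 kb of window the medians ranged from 0.966 at Snai2 to 6.93 at Tfap2b. Of the 173 regions, 25 had a peak in all 7 libraries, which is 14.5% against 16.2% of all regions, and 52 were found in 1 library only, 30.1% against 35.4%.

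The high count at Tfap2b came largely from repeated sequence. For each region, 15 stretches of 31 bases around the summit were looked up in the whole genome, and a region was called multi-copy where the median stretch occurred more than once. At Tfap2b, 8 of 18 regions were multi-copy (44.4%), against 15 of 173 at all 9 genes (8.67%) and 17.7% of all regions. All 4 Tfap2b regions with a peak in all 7 libraries were of this kind. They lie between chr1:19283231 and chr1:19285921, beyond the end of the gene at chr1:19238845 and 71.3 to 73.4 kb downstream of the nearest TSS. The strongest of them, at chr1:19283231-19283464, had a fold enrichment of 8.53 and 12.5 in GFP+, 8.48 and 12.6 in Tomato+, 10.1 and 10.8 in GFP-, and 11.3 in Tomato- cells, and its median stretch occurred 1402 times in the genome. Reads there cannot be placed on 1 copy, and no stretch matched the mitochondrial genome. Thus no single-copy region at Tfap2b had a peak in all 7 libraries.

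The same held at both strong intergenic regions of Tfap2a. The region at chr13:40670363-40670734, with 4.78 to 9.85, had a median copy number of 265, and the region at chr13:40752490-40753035, with 3.01 to 6.13, had 2. By contrast, the strongest single-copy distal region of the 9 genes with a peak in all 7 libraries lay inside Tfap2a at chr13:40722627-40723562, over an exon and 7.39 kb downstream of the nearest TSS. Its fold enrichment was 7.41 and 8.22 in GFP+, 6.80 and 9.32 in Tomato+, 7.98 and 8.85 in GFP-, and 9.08 in Tomato- cells, higher in every library than the Tfap2a promoters. Labelled and unlabelled cells overlapped, and the log2 difference, sort-positive minus sort-negative, was -0.13 ± 0.16 (SE).

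**Figure D2:**
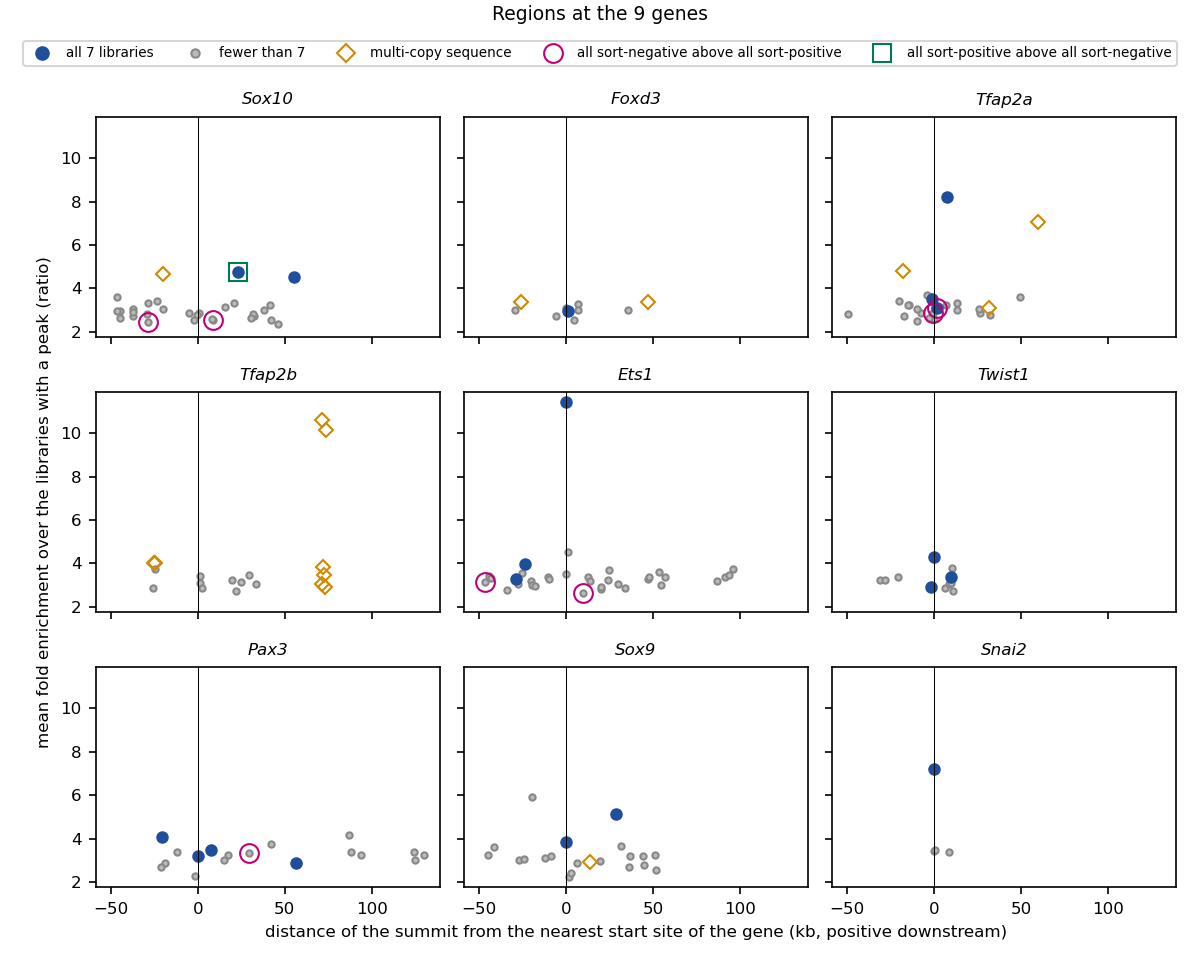
Mean fold enrichment over the libraries with a peak (y axis, ratio) of the 173 regions, by gene and by distance of the summit from the gene's nearest TSS (x axis, kb). Blue points are single-copy regions in all 7 libraries, grey points those in fewer, and orange diamonds the 15 multi-copy regions, which make up the tall group 71.3 to 73.4 kb downstream at Tfap2b; large circles and the square mark the 8 regions separated between the sorts.

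Other regions held in all 7 libraries were moderate. At Sox9, the intergenic region at chr11:112810912-112811835, 29.1 kb downstream of the TSS, was stronger than the promoter in 6 of the 7 libraries, with 4.01 and 3.80 in GFP+, 3.35 and 7.09 in Tomato+, 5.42 and 6.18 in GFP-, and 6.22 in Tomato- cells. At Twist1, the region 10.1 kb downstream (chr12:33967554-33967846) had 6.28 in GFP+ replicate 3 and 2.27 to 3.58 in the other 6 libraries, so its height rested on 1 library. At Pax3, a region 20.4 kb upstream over an exon of the non-coding gene Gm2102 (chr1:78216588-78217823) had 3.15 to 5.59, and an intronic region 7.46 kb downstream (chr1:78189510-78190013) had 2.54 to 4.52. At Ets1, an intronic region at chr9:32672045-32672911 had 2.99 to 5.003. At Sox10, both regions found in all 7 libraries lay over promoters of neighbouring genes, Micall1 at 4.14 to 5.22, and Polr2f with 1700088E04Rik at 3.48 to 7.40. Hence Sox10 had no region of its own that was present in every library.

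To compare labelled with unlabelled cells, the 34032 regions with a peak in every library were tested on quantile-normalized log2 fold enrichment with limma, with Benjamini-Hochberg adjustment over all of them. No region passed an adjusted p of 0.05 in either comparison, 0 of the 25 at the 9 genes and 0 of 34032 overall (0%). At an unadjusted p under 0.05, sort-positive against sort-negative libraries gave 1 of the 25 regions against 4.98% of all regions, and GFP+ against Tomato+ libraries gave 1 of 25 against 8.63%. The counts at the 9 genes are thus near the background. The median log2 difference, sort-positive minus sort-negative, was 0.014 over the 25 regions, of which 14 were above 0, and 0.00017 over all regions.

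The 1 region at an unadjusted p under 0.05 between sorts was an exonic region of Tfap2a, at chr13:40728264-40728650 and 1.84 kb downstream of the nearest TSS. Its fold enrichment was 2.9998 and 2.75 in GFP+, 2.67 and 2.75 in Tomato+, 3.39 and 3.68 in GFP-, and 3.36 in Tomato- cells. Every sort-negative value was above every sort-positive value, but 0.993 was its adjusted p in limma. The log2 difference was -0.36 ± 0.15 (SE), with -0.35 within the GFP line and -0.34 within the Tomato line. By an exact two-sided permutation test of this single region, p = 0.0571, the smallest that 4 libraries against 3 allow and the value that any full separation gives. The region was picked for this test because it was fully separated, so the value was fixed in advance and adds no support.

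The Sox9 region 29.1 kb downstream of the TSS had the largest difference of the 25, at -0.48 ± 0.22 (SE) on the log2 scale, with an adjusted p of 0.993 in limma. The values overlapped, because Tomato+ replicate 8 held the highest of all, and the difference was -0.61 within the GFP line and -0.35 within the Tomato line. The Sox9 promoter had -0.30 ± 0.20. The Twist1 region 10.1 kb downstream lay at the other end, at 0.42 ± 0.26, with 1 library above the rest. Strong single-copy promoters stayed close to 0, with 0.033 ± 0.16 for Ets1, -0.0070 ± 0.16 for Twist1 and -0.019 ± 0.22 for Snai2. In GFP+ against Tomato+ cells, the Pax3 promoter region was the 1 region at an unadjusted p under 0.05, at -0.54 ± 0.24 on the log2 scale, with an adjusted p of 0.566 in limma. The difference at the Pax3 promoter depended on single libraries. It was -0.68 without Tomato+ replicate 6 and -0.64 without GFP+ replicate 4. It shrank to -0.44 without GFP+ replicate 3 and to -0.40 without Tomato+ replicate 8. The difference of the sort effect between the 2 mouse lines, tested as an interaction in limma, gave 0 of 34032 regions at an adjusted p under 0.05. At an unadjusted p under 0.05 it gave 0 of the 25 regions, against 4.14% of all.

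**Figure D3:**
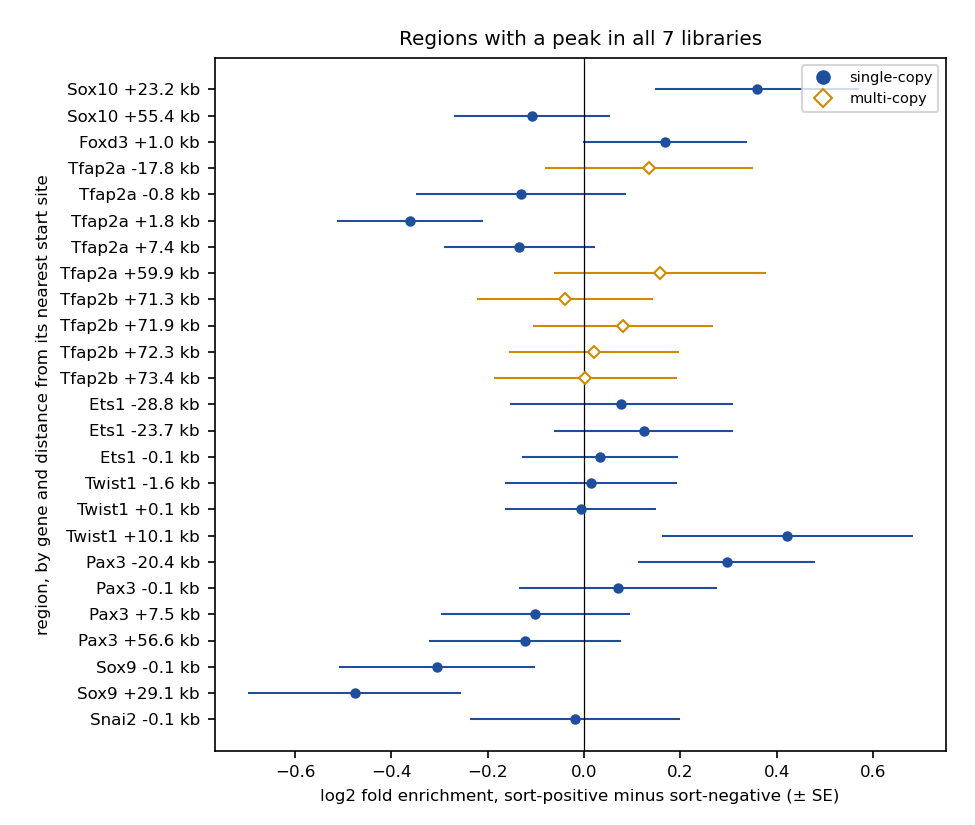
Log2 fold enrichment, sort-positive minus sort-negative (x axis), with its standard error for the 25 regions with a peak in all 7 libraries, by gene and distance from the nearest TSS (y axis). Differences range from -0.48 at the distal Sox9 region to 0.42 at the distal Twist1 region, 14 of 25 are above 0, and the multi-copy regions (open diamonds) lie near 0.

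Most crest gene regions were absent from some libraries and could not enter that comparison, so all regions were also ranked by position from the top of each list, with a library without a deposited peak placed last. By this ranking, all 3 sort-negative libraries stood above all 4 sort-positive ones in 7 of the 173 regions (4.05%), against 1.43% of all regions. The reverse held in 1 region (0.578%), against 0.926% of all. Among regions with a peak in all 3 sort-negative libraries the share was 7 of 47 (14.9%) against 6.5%, and among regions with a peak in all 4 sort-positive libraries 1 of 33 (3.03%) against 4.82%. All 8 regions were single-copy. In none of the 7 regions with the sort-negative libraries above did a sort-positive peak pass the q limit. All 7 thus entered the set of regions through sort-negative libraries alone. With 7 regions that entered in this way, these shares describe the genes and carry no test. The ranking also depends on list length, which was shorter in the sort-negative libraries (187914 to 230683 peaks, against 207357 to 291287). With the position taken as a share of the list, 5 of the 7 remained against 0.986% of all regions, and 2 regions stood the other way against 1.32%.

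The 7 regions lay at Tfap2a, Sox10, Ets1 and Pax3. At Pax3, the intronic region at chr1:78167563-78168025, whose sequence is shown above, had 3.07 and 3.11 in GFP-, 4.11 in Tomato- and 3.02 in Tomato+ replicate 8, and no peak in the other 3 sort-positive libraries. All 3 sort-negative peaks passed the q limit, with -log10 q of 2.01 to 5.85, and the Tomato+ peak missed it at 1.77. At Ets1, the region at chr9:32589650-32590308, 46.2 kb upstream, had 2.88 and 3.34 in GFP- and 3.84 in Tomato- cells, against 2.72 in GFP+ replicate 3, 2.92 in Tomato+ replicate 8 and no peak in the other 2. Its fold enrichments overlapped, and only the list positions were separated.

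The other distal regions of this kind were small. The Sox10 region at chr15:79192992-79193075, 28.5 kb upstream in an intron of Gm10863, had 2.84, 2.26 and 2.24 in the sort-negative libraries and no peak in any sort-positive one. An intronic Ets1 region at chr9:32706111-32706183, 10.1 kb downstream, had 2.27, 3.26 and 2.37, likewise with no sort-positive peak. Both were found at a q-value of at most 0.01 in 1 library only, so a peak below the calling limit in the others cannot be told from none. The exonic Sox10 region at chr15:79155922-79156097 had 2.13, 3.23 and 2.21 in the sort-negative libraries and 2.52 in Tomato+ replicate 6. There the ranking alone placed the sort-negative libraries first, since Tomato+ replicate 6 had a higher fold enrichment than 2 of them in a longer list. Only the peak of GFP- replicate 2 passed the q limit in that region.

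At Tfap2a, both the exonic region described above and a promoter region at chr13:40730642-40730949 were of this kind. The promoter region had 3.17, 2.91 and 2.87 in the sort-negative libraries, 2.81 and 2.49 in GFP+ cells, and no peak in Tomato+ cells. It lies beside the main Tfap2a promoter region at chr13:40731086-40731754, which had 2.45 to 4.70 and was not separated. The 1 region with the sort-positive libraries above was the Polr2f and 1700088E04Rik promoter within the Sox10 window, at 4.55 and 4.51 in GFP+, 7.40 and 4.81 in Tomato+, 4.22 and 3.48 in GFP-, and 4.38 in Tomato- cells. The exact two-sided permutation test has the same p = 0.0571 there. That value was fixed in advance, because the region was picked for its full separation. In limma the adjusted p of this region was 0.999.

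**Figure D4:**
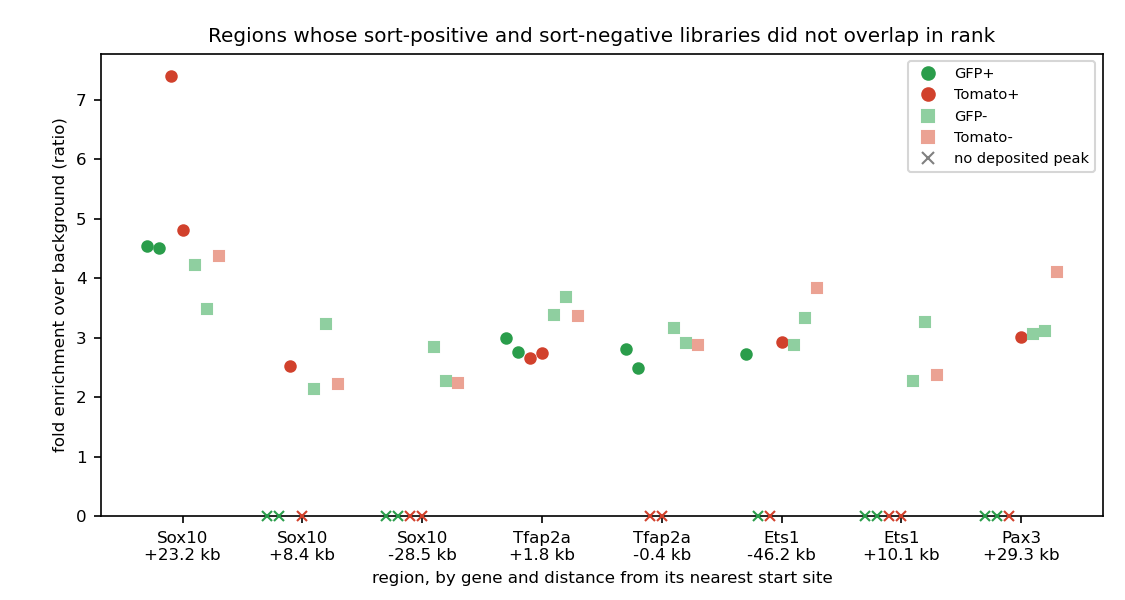
Fold enrichment over background (y axis, ratio) in each library for the 8 regions whose sort-positive (circles) and sort-negative (squares) libraries did not overlap in list position, by gene and distance from the nearest TSS (x axis); crosses mark libraries with no deposited peak. Apart from the Sox10 region at 23.2 kb, which is the promoter of Polr2f, all values lie between 2.13 and 4.11.

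Between the labelled populations, peaks with a q-value of at most 0.01 were fewer in Tomato+ cells. Summed over the 9 windows, 63 and 66 peaks had a q-value of at most 0.01 in GFP+, 41 and 50 in Tomato+, 64 and 63 in GFP-, and 78 in Tomato- cells. As a share of all such peaks of the library these were 0.0872% and 0.0929%, 0.0576% and 0.0778%, 0.0983% and 0.0896%, and 0.1003%, so both Tomato+ libraries were the lowest on either scale, and replicate 8 alone was still below the other 5. Tomato+ replicate 6 was also the shallowest library, at 52300000 tags, and the part of depth in this order was not tested. At a q-value of at most 0.0001 the totals were 27 and 26, 21 and 27, 20 and 19, and 28, and the Tomato+ libraries were no longer the lowest.

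By gene, both Tomato+ libraries had fewer peaks of q at most 0.01 than each of the other 5 libraries at Tfap2b and Twist1, 2 of 9 windows, against 3.31% of the windows of coding genes. Both GFP+ libraries exceeded both Tomato+ libraries at Tfap2a, Tfap2b and Twist1, 3 of 9 against 13.3%, and the reverse held at none of the 9 against 8.07%. These window comparisons were not planned and count the same peaks as the totals above, so they add no separate support. At Twist1 the counts were 6 and 7 in GFP+, 2 and 3 in Tomato+, 4 and 5 in GFP-, and 4 in Tomato- cells. At Tfap2b they were 9 and 11, 6 and 7, 12 and 9, and 11, and multi-copy peaks are included. Region by region, 8 of the 173 were found in both GFP+ and neither Tomato+ library (4.62%, against 3.28% of all regions), and 3 in both Tomato+ and neither GFP+ library (1.73%, against 2.69%). Windows of neighbouring genes share peaks, so the background windows are not independent of each other.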

How the data were processed

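ATAC-seq was measured in 7 libraries of sorted E9.5 cells. Reads were aligned by the authors with SNAP to GRCm38, filtered with SAMtools, and peaks were called per library with MACS2 (2.1.1 in the submitters' processing notes and in the methods; the 1 deposited header, of Tomato+ replicate 6, names 2.1.0.20150731). Per that header no control was used, peaks were kept to a p of 0.01 with duplicates retained at that step, and tags were extended to 73 bp after a 3' shift of 37 bp, which places the interval beside the cut site. The paper's methods state that duplicated reads were removed in the SAMtools filtering. As deposited, the pileup is a coverage signal read at each summit, and the fold enrichment is its ratio to local background. The deposited significance, given as -log10 of the p-value and of the q-value, is specific to a library and rises with its depth. The number of tags was estimated from the lowest background rate of each list. For Tomato+ replicate 6 the header gives 52340220 tags, under a run name (YFP) that differs from the label. The headers of the other lists were not at hand.

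Peaks with q at most 0.01 were merged where they shared 1 bp, and each library's strongest deposited peak in a region was taken. Genes and TSSs were those of the RefSeq annotation of GRCm38.p6. Regions with a peak in all libraries were tested with limma 3.58.1 in R 4.3.3 on quantile-normalized log2 fold enrichment, as 4 sort-positive against 3 sort-negative libraries without a covariate, and as GFP+ against Tomato+ in a model of 4 group means. The fit and the overlap code were tested on simulated data. Rank separation and peak counts are descriptions.

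The 9 genes and all lists were chosen with earlier results of these data known. Described were all promoter regions, the strongest distal regions present in all libraries, and every separated or called region. The alternatives are given in the closing section.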

Additional observations from a re-analysis of the deposited data

How the results depend on the processing

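No paired analysis was made, because the labels do not say which libraries came from the same pool of embryos. Under every alternative run, no region at the 9 genes passed an adjusted p of 0.05 in limma: another q limit, 50% overlap, no normalization, -log10 p in place of fold enrichment, mouse line as a covariate of the sort comparison, single-copy regions alone, and each library left out in turn. Where 1 library was left out, a group could keep a lone library, which was assumed to vary like the others. Over all regions, the one exception was GFP+ against Tomato+ without Tomato+ replicate 8, with 2 of 35520 regions called. The differences named at Tfap2a, Sox9 and the Pax3 promoter kept their sign throughout. The count of regions with the sort-negative libraries above changed from 7 to 3 at a q-value of at most 0.0001, where 53 regions were left at the 9 genes (5.66%, against 2.73% of all). It was 5 to 6 with 50% overlap, with -log10 p, and with either other ranking, and 7 among single-copy regions. With 1 library left out it ranged from 7 to 16, the highest without GFP- replicate 2. It was 12 without GFP- replicate 1 and 15 without Tomato- replicate 7, since fewer libraries have to agree, and the background share rose to 4.14% to 4.27%. The count with the sort-positive libraries above was 0 with -log10 p and 2 with the position as a share of the list, and ranged from 1 to 4 with 1 library left out (2 without either GFP+ library, 3 without Tomato+ replicate 8 or Tomato- replicate 7, and 4 without GFP- replicate 2). The single-copy setting and both other rankings were chosen after seeing the data, and the comparisons of gene windows were not planned. The median number of peaks per library at the 9 genes was 63, and 26 at a q-value of at most 0.0001. The file values give no reads between peaks, so signal below the calling limit was not seen.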
